A study of Mus musculus with 6 samples.

Results

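The genes described here encode carriers for small organic anions: 39 of the 19937 genes measured on the arrays, taken by symbol as the analysed genes of the families Slc10a, Slc13a, Slc16a, Slc17a and Slc23a together with Slc5a8 and Slc5a12. Slc10a3 was named only on a probe set with several symbols and was not analysed here. Beyond carboxylates, urate and bile acids, these families also hold carriers of sulfate, creatine, aromatic amino acids, ascorbate and neurotransmitters, and some with no settled substrate. RNA came from whole mouse kidneys of 2 groups with 3 arrays each. NICD1 kidneys carry the transgenes Pax8rtTA and TREICNotch1, which together allow an inducible, active Notch1 fragment to be made in tubule epithelium, so the transgene acts in many tubule segments and not in a single cell type. Control kidneys are those of wild-type littermates. Strain, age, sex, the inducing agent and its timing are not in the labels, nor is it stated that each array is a different animal, so the p-values below measure the spread between these samples. In whole kidney, fewer cells of a type and less RNA per cell cannot be told apart.

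The proximal tubule takes back filtered lactate, ketone bodies, citrate, sulfate, ascorbate and bile acids, largely by carriers that use the sodium gradient at the brush border. Other carriers on the basolateral side pass these solutes to the blood, and dicarboxylate uptake there drives the exchangers that bring organic anions and urate into the cell for secretion. Some carriers of the SLC16 family move lactate with a proton and are used for export by glycolytic cells and for uptake by cells that burn lactate.

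Values are log2 expression after RMA, a normalization that understates differences of dim genes. Array medians over all genes lay between 5.38 and 5.41 in NICD1 kidneys and between 5.26 and 5.29 in controls. Notch1 was at 10.19 ± 0.18 in NICD1 kidneys and 6.56 ± 0.11 in controls (SD, n = 3 each), although its probe set does not tell transgene from endogenous transcript. Proximal tubule markers outside the families moved with the transporters: 12 of 13 were lower, and their mean per array was 7.21 to 8.001 in NICD1 kidneys, against 10.80 to 10.88 in controls. Macrophage markers moved the other way, with 6 of 7 higher and means of 6.69 to 7.50 in NICD1 kidneys, against 4.92 to 5.16 in controls. Of 6 fibroblast markers 4 were higher, of 5 endothelial markers 3 were lower, and of 5 T cell markers 2 were higher. The shares of all genes were 17.8% higher and 14.9% lower. The 2 T cell genes were Cd8a (1.38 log2) and Cd3e (0.30 log2), the latter under the array median on all 6 arrays. Thick limb and distal markers were lower for 5 of 6 and higher for 1, as were collecting duct markers. Of 4 podocyte markers 2 were lower and 1 higher. Of 4 hepatocyte markers only Ttr was called, as lower, at 5.08, 4.50 and 5.02 in NICD1 kidneys and 5.08, 9.24 and 9.15 in controls, so that control replicate 1 was at the NICD1 level. Alb lay between 3.43 and 4.72 on all 6 arrays. Xist lay between 2.72 and 3.11 and the Y-linked Kdm5d, Uty and Eif2s3y between 6.14 and 7.93 on the same 6 arrays, with none of these 4 genes called. The part of cell composition in the results below was not tested.

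Transporter transcripts were mostly lower in NICD1 kidneys. With limma and an adjusted p under 0.05, 20 of the 39 genes (51.3%) were lower, against 14.9% of all genes, and 3 (7.69%) were higher, against 17.8% of all genes. Together 32.7% of all genes were called. A fall of at least 2-fold was called for 17 of the 39 (43.6%), against 5.30% of all genes, and of at least 8-fold for 8 (20.5%), against 0.662%. All 3 NICD1 arrays lay below all 3 control arrays for 21 members, a pattern that 19.7% of all genes showed, and above them for 6, a pattern that 23.7% showed. The median difference, NICD1 minus control, was -0.47 log2 over the 39 genes and 0.015 over all genes. No filter on low values was applied. Of the 39 genes, 13 were under the array median on all 6 arrays, among them 12 of the 16 genes that were not called, and without detection calls it is not known whether these were expressed.

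**Figure D1:**
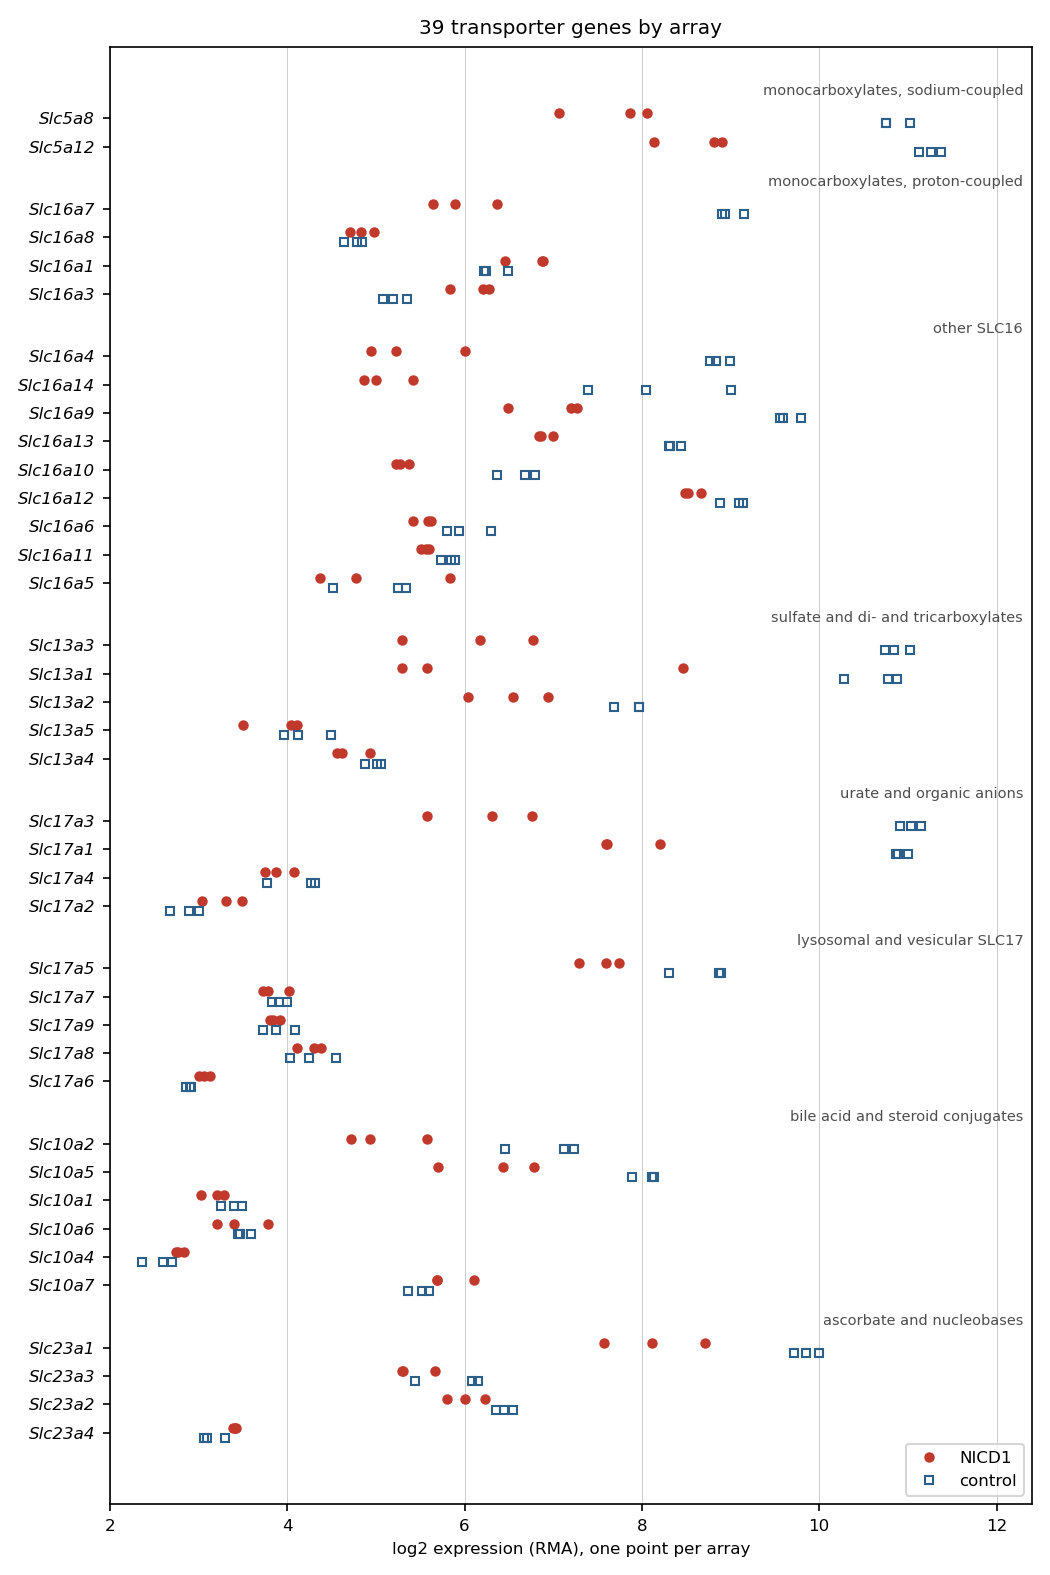
Log2 expression (RMA) of the 39 transporter genes, one row per gene and one point per array, with NICD1 arrays as filled circles and control arrays as open squares, grouped by substrate. Genes with large differences, such as Slc17a3 (5.58 to 6.76 in NICD1, 10.91 to 11.15 in controls), stand apart from genes near the floor such as Slc17a6 (3.002 to 3.13 in NICD1, 2.86 to 2.92 in controls).

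Both sodium-coupled monocarboxylate carriers fell. Slc5a8, the high-affinity carrier that recovers filtered lactate, pyruvate and nicotinate, had values of 7.06, 8.06 and 7.87 in NICD1 replicates 1 to 3, against 10.75, 11.03 and 10.76 in control replicates 1 to 3. The groups were far apart, and NICD1 replicate 1 was the lowest array. The difference was -3.18 log2 (SE 0.23, adjusted p = 8.49e-06), a 9.06-fold fall. Slc5a12, the low-affinity carrier of the same solutes, stood at 8.13, 8.91 and 8.82 in NICD1 kidneys and at 11.12, 11.26 and 11.38 in controls. Here too NICD1 replicate 1 was lowest and the groups did not overlap (-2.63 log2, SE 0.19, adjusted p = 8.95e-06, 6.19-fold).

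The 4 established proton-coupled lactate carriers did not move together. Slc16a7 (MCT2), which has a high affinity for pyruvate and lactate, was at 6.37, 5.89 and 5.65 in NICD1 kidneys, against 8.94, 9.15 and 8.91 in controls. The groups were well separated, with an 8.18-fold fall (-3.03 log2, SE 0.17, adjusted p = 2.77e-06). Slc16a3 (MCT4), which exports lactate from glycolytic cells, was at 5.84, 6.21 and 6.28 in NICD1 kidneys, against 5.08, 5.19 and 5.35 in controls. Every NICD1 array was above every control array, and the rise was 1.87-fold (0.90 log2, SE 0.14, adjusted p = 0.000826). This was the only one of the 3 rises among the 39 genes that was called under every alternative other than the 2-fold minimum. MCT4 is also made by activated macrophages, and 6 of 7 macrophage markers were higher in the same arrays. Their part in this rise was not tested. Slc16a1 (MCT1), the widely expressed carrier, was at 6.88, 6.88 and 6.46 in NICD1 kidneys and 6.49, 6.22 and 6.24 in controls. The lowest NICD1 array lay below the highest control array, and the difference of 0.42 log2 (adjusted p = 0.0474) was no longer called without NICD1 replicate 1 or 2, without control replicate 2 or 3, after quantile normalization (0.38, adjusted p = 0.0553) or after centring of the arrays (0.30, adjusted p = 0.143). Slc16a8 (MCT3), a carrier of the retinal pigment epithelium, had 4.84 ± 0.13 in NICD1 kidneys and 4.76 ± 0.11 in controls (95% interval of the difference -0.17 to 0.33).

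Basigin and embigin carry these proteins to the membrane, and neither transcript was called. Bsg, the partner of MCT1, MCT3 and MCT4, averaged 8.68 ± 0.02 in NICD1 kidneys and 8.81 ± 0.11 in controls (adjusted p = 0.420). Emb, the partner of MCT2, averaged 6.26 ± 0.42 and 6.71 ± 0.21 in the same order (adjusted p = 0.128). Of the other 4 genes of that list, all tied to the brush border scaffold, 3 fell and Slc9a3r1 was not called. Pdzk1, the scaffold that holds several anion carriers in the brush border, was the largest of these falls at -1.96 log2 (adjusted p = 8.49e-06), followed by Pdzk1ip1 (-0.72) and Slc9a3r2 (-0.61). The list's median was -0.53 log2. Of all genes 14.9% fell.

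Of the remaining 9 measured SLC16 genes 7 fell, 0 rose and 2 were not called, where 14.9% of all genes fell and 17.8% rose. Slc16a4 (MCT5), whose substrate is not settled, was at 5.22, 6.00 and 4.95 in NICD1 kidneys, against 8.77, 8.99 and 8.84 in controls. Control arrays were tightly grouped and NICD1 arrays spread over about 1 log2 unit. The fall was 11.1-fold (-3.47 log2, SE 0.23, adjusted p = 5.63e-06). Slc16a14, another carrier without an established substrate, was at 5.003, 5.42 and 4.87 in NICD1 kidneys, against 9.01, 8.04 and 7.39 in controls. In this gene it was the control arrays that spread widely, and even the lowest of them exceeded every NICD1 array (-3.05 log2, SE 0.34, adjusted p = 0.000125). Slc16a9 (MCT9), linked in human genetics to carnitine and urate levels, was at 6.49, 7.27 and 7.20 in NICD1 kidneys, against 9.60, 9.79 and 9.55 in controls (-2.66 log2, SE 0.19, adjusted p = 8.79e-06). It was the only member with more than 1 probe set, and its second probe set, at 2.46 to 2.61 in NICD1 kidneys and 2.55 to 2.74 in controls, differed by just -0.10, so the mean of both fell by 1.38 on the log2 scale.

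Smaller falls were found for carriers of amino acids and creatine. Slc16a10 (TAT1), the basolateral exit path of aromatic amino acids, averaged 5.29 ± 0.07 in NICD1 kidneys and 6.61 ± 0.22 in controls, a 2.50-fold fall (adjusted p = 4.66e-05). Slc16a13, a carrier for which lactate transport has been reported, averaged 6.90 ± 0.09 and 8.36 ± 0.07 in NICD1 and control kidneys (-1.46 log2, adjusted p = 6.51e-06), with little spread in either group. Its direct neighbour on chromosome 11 in the mouse gene table of assembly GRCm38.p6, Slc16a11, was at 5.51 to 5.60 in NICD1 kidneys and 5.74 to 5.90 in controls. Those groups did not overlap either, but the difference of -0.27 was not called (adjusted p = 0.0647). Slc16a12, the creatine carrier, kept most of its level, at 8.56 ± 0.10 in NICD1 kidneys and 9.04 ± 0.14 in controls (-0.48 log2, adjusted p = 0.00853), and the call was lost after quantile normalization (-0.21, adjusted p = 0.18). Slc16a6 (MCT7), a ketone body exporter in zebrafish liver, differed by -0.47 (adjusted p = 0.0271), a call lost without NICD1 replicate 1 (-0.41), control replicate 1 (-0.33) or control replicate 2 (-0.51). Slc16a5 (MCT6) had the widest spread of the genes not called, 4.37 to 5.83 in NICD1 kidneys and 4.52 to 5.33 in controls, with an interval of the difference from -0.83 to 0.74.

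**Figure D2:**
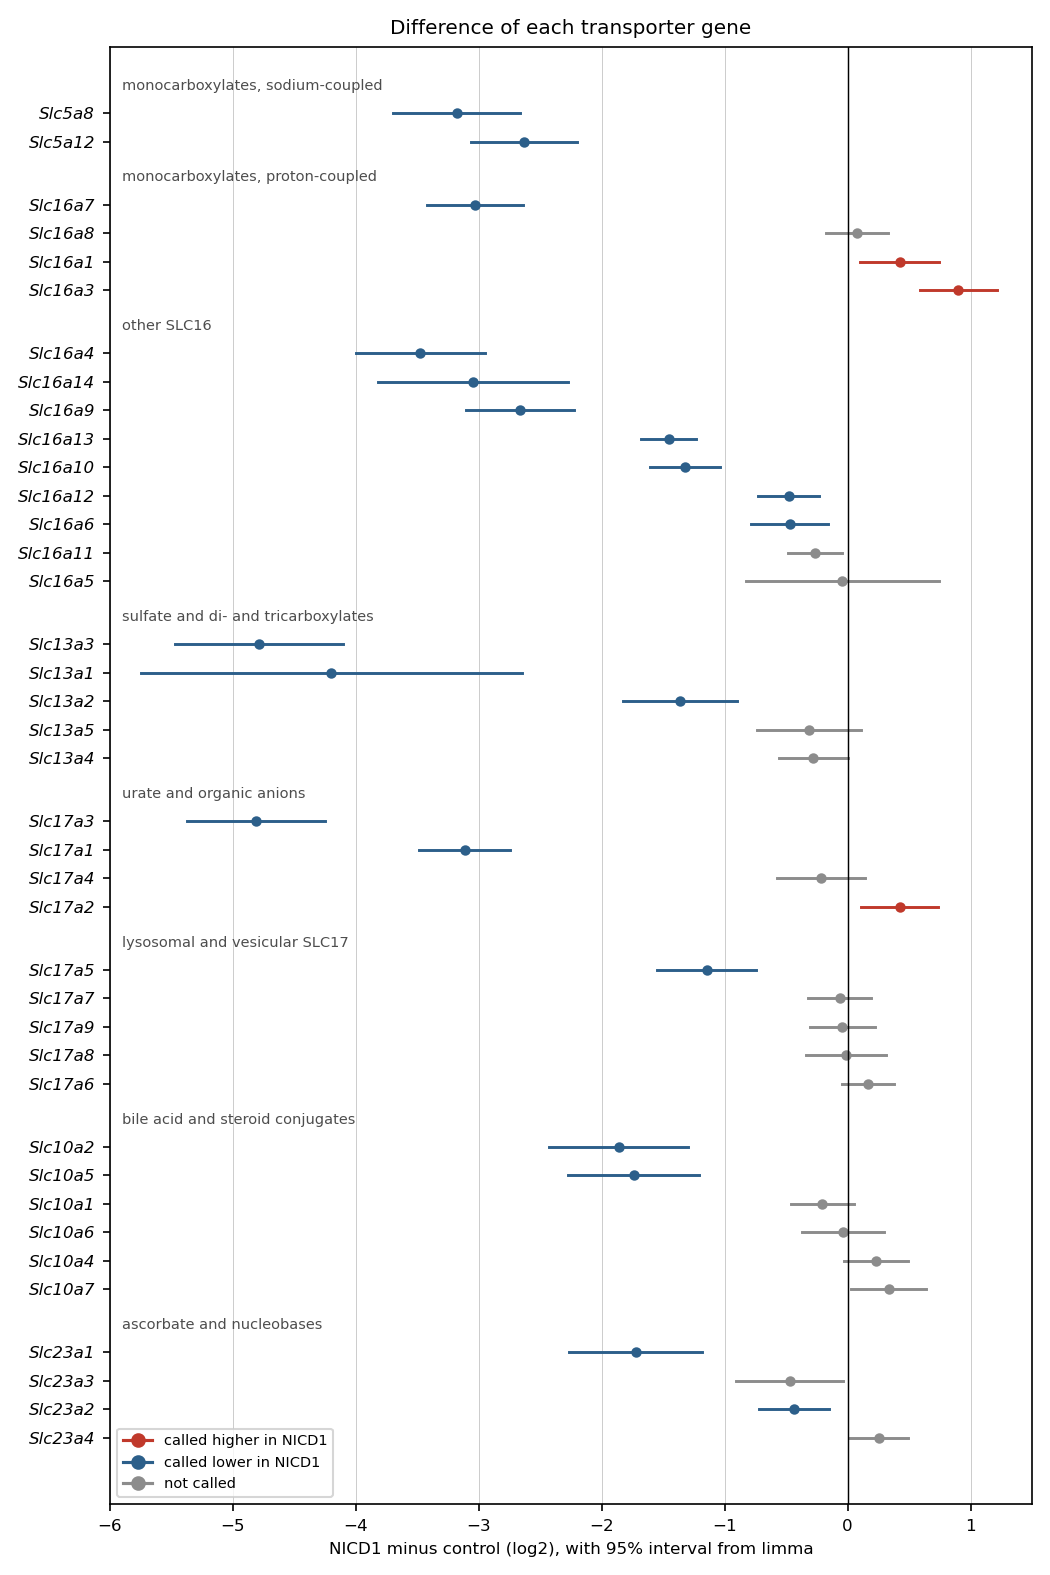
NICD1 minus control difference of each of the 39 genes on the log2 scale, with its 95% interval from limma, grouped by substrate and coloured by call. The intervals of Slc17a3 (-5.37 to -4.25), Slc13a3 (-5.47 to -4.11) and Slc13a1 (-5.75 to -2.65) belong to the 3 largest differences. That of Slc16a3 (0.59 to 1.21) lies to the right of the line of no difference.

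The sulfate and dicarboxylate carriers of the tubule fell, and their relatives of other organs were not called. Slc13a3 (NaDC3), the basolateral carrier that takes up succinate and alpha-ketoglutarate and so supplies organic anion exchange, was at 5.30, 6.17 and 6.77 in NICD1 kidneys, against 10.84, 11.03 and 10.74 in controls. Every NICD1 array was at least 3 log2 units under the lowest control array. The fall was 27.7-fold (-4.79 log2, SE 0.30, adjusted p = 4.28e-06). Slc13a1 (NaS1), which recovers filtered sulfate, was at 5.30, 5.58 and 8.46 in NICD1 kidneys, against 10.28, 10.88 and 10.78 in controls. NICD1 replicate 3 stood far above the other NICD1 arrays, with the largest NICD1 SD of the 39 genes (1.75), and still below every control array. The difference was -4.20 log2 (SE 0.69, adjusted p = 0.00121) with all arrays and -5.21 without NICD1 replicate 3. Slc13a2 (NaDC1), which recovers filtered citrate at the brush border, fell less, with 6.04, 6.94 and 6.55 in NICD1 kidneys, against 7.96, 7.68 and 7.96 in controls (-1.36 log2, SE 0.20, adjusted p = 0.000733). The interval of the Slc13a2 difference (-1.82 to -0.90) and that of Slc13a3 did not overlap. Slc13a4 (NaS2), best known from placenta, averaged 4.70 ± 0.20 in NICD1 kidneys and 4.98 ± 0.10 in controls (adjusted p = 0.125), and was called without NICD1 replicate 3 (-0.39). Slc13a5 (NaCT), the citrate carrier of liver and brain, averaged 3.88 ± 0.33 and 4.19 ± 0.27 in the same order (adjusted p = 0.268).

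The promoters of the 2 dicarboxylate carriers, one with the larger and one with the smaller fall, are shown because they hold different motifs. Both windows run from 250 bases before to 50 bases after a start site in RefSeq, assembly GRCm38.p6, on the minus strand, at chr2:165473148-165473447 for Slc13a3 and chr11:78422185-78422484 for Slc13a2. They are written 5' to 3' with motif matches in capitals.
Slc13a3: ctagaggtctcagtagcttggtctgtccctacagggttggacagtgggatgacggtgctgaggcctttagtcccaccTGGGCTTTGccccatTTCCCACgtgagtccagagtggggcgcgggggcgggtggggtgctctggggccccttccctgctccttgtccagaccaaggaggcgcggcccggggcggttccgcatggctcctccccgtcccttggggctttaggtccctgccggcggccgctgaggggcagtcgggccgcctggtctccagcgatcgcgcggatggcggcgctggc
Slc13a2: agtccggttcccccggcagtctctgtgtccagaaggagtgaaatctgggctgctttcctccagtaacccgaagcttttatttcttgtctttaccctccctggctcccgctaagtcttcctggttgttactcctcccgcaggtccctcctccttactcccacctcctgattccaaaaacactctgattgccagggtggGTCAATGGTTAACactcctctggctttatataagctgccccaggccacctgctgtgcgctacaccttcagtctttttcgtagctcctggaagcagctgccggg
The motif of HNF1, a factor of proximal tubule, liver and gut genes, was searched as GTTAAT, any 1 base and the reverse complement of GTTAAT, with up to 2 mismatches. That of HNF4 was searched as CAAAGTCCA with up to 1 mismatch, and that of RBPJ, the DNA-binding partner of active Notch, as GTGGGAA with 0 mismatches, each on both strands. In Slc13a2 the capitals are a match to HNF1 that begins at position -53 from the start site, and in Slc13a3 a match to HNF4 at -173 followed by one to RBPJ at -158. Of the 39 genes 29 had a promoter in the table. HNF1 matches occurred in 3 of 13 lowered, 1 of 3 risen and 1 of 13 uncalled members, and in 1.58% of all 27025 genes with a promoter. HNF4 matches occurred in 4, 0 and 3 of these members and in 9.64% of all genes, and RBPJ matches in 1, 1 and 0 and in 7.25% of all genes. No matches overlapped in the sequences shown. A match is a run of letters, not a measured binding site.

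Genes that handle the same acids were lower as well. Of 13 measured genes of citrate, succinate and oxalate handling 11 fell and 0 rose, with a median of -1.19 log2. Of all genes 14.9% fell and 17.8% rose. The succinate receptor Sucnr1 was at 3.62, 3.63 and 4.10 in NICD1 kidneys, against 6.73, 7.59 and 7.63 in controls (-3.54 log2, adjusted p = 6.06e-06). The peroxisomal hydroxyacid oxidase Hao2 differed by -4.19 log2, the sulfate and oxalate exchanger Slc26a1 by -2.84 and the mitochondrial acetyl-CoA synthetase Acss1 by -1.89, all called and each without overlap between the groups. Of 10 measured enzymes and carriers of lactate, pyruvate and ketone use 9 fell and 0 rose (median -1.55 log2), beside the same shares of all genes. D-lactate dehydrogenase Ldhd differed by -3.44 log2, pyruvate carboxylase Pcx by -2.94, the ketone-using enzyme Oxct1 by -2.36 and the thiolase Acat1 by -1.86, all called. The member of that list that was not called was Ldha, the L-lactate dehydrogenase subunit of glycolytic tissue, at 10.34 ± 0.04 in NICD1 kidneys and 10.57 ± 0.05 in controls (-0.22 log2, adjusted p = 0.109).

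Of the 4 SLC17 carriers of urate and organic anions 2 fell strongly, where 14.9% of all genes fell. Slc17a3 (NPT4), which lets urate and drugs leave the cell into the urine, was at 5.58, 6.31 and 6.76 in NICD1 kidneys, against 10.91, 11.15 and 11.03 in controls. With a 28.1-fold fall it had the largest difference of the 39 genes (-4.81 log2, SE 0.25, adjusted p = 1.66e-06). Slc17a1 (NPT1), a brush border urate carrier, was at 7.59, 7.61 and 8.21 in NICD1 kidneys, against 10.86, 11.00 and 10.89 in controls. The control arrays lay close together, and the fall was 8.66-fold (-3.11 log2, SE 0.16, adjusted p = 1.83e-06). In the gene table Slc17a2, Slc17a3, Slc17a1 and Slc17a4 follow each other on chromosome 13. The outer pair did not share the fall. Slc17a2 (NPT3) was at 3.05, 3.49 and 3.31 in NICD1 kidneys, against 3.0, 2.90 and 2.67 in controls, under the median of every array. Its rise of 0.42 log2 (adjusted p = 0.0436) was no longer called without NICD1 replicate 2 or 3, without control replicate 2 or 3, or after centring (0.30, adjusted p = 0.126). Slc17a4, known from intestine, averaged 3.90 ± 0.16 in NICD1 kidneys and 4.12 ± 0.30 in controls (interval of the difference -0.57 to 0.15).

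Promoters from this gene row are shown because Slc17a1 and Slc17a2, called in opposite directions, hold a similar match. They are the second of 2 Slc17a1 windows, at chr13:23870023-23870322, and the Slc17a2 window at chr13:23806743-23807042, both on the plus strand of GRCm38.p6 in RefSeq, with matches in capitals.
Slc17a1: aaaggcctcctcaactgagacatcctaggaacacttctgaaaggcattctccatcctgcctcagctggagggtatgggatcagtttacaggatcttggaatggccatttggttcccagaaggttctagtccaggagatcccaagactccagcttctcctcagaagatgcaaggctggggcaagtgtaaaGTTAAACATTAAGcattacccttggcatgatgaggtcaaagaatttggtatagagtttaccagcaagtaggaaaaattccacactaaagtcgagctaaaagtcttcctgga
Slc17a2: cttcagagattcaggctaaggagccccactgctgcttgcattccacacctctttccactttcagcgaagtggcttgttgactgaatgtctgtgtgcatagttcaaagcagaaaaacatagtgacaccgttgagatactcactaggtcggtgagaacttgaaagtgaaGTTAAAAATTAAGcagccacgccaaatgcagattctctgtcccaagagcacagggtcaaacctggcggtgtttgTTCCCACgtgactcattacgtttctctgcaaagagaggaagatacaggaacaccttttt
The match to HNF1 begins at -61 in Slc17a1 and at -83 in Slc17a2, with 2 mismatches in each. Slc17a2 also holds the RBPJ motif on the opposite strand at -9. The other Slc17a1 window held an HNF4 match at 11, and the Slc17a3 window held no match to any of the 3 motifs.

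Other genes of urate and organic anion handling were split. Of 10 measured, 6 fell, 3 rose and Uox, the urate oxidase of liver, was not called (median -2.34 log2). Of all genes 14.9% fell and 17.8% rose. The organic anion carriers Slc22a6, Slc22a8 and Slc22a7 differed by -5.51, -5.41 and -5.39 log2, and Slc22a13 by -2.57, all called. Chosen after their values were seen, Slc22a12 (URAT1), the carrier that takes urate back from the urine, was at 7.05, 8.13 and 8.75 in NICD1 kidneys and 10.66, 11.11 and 10.65 in controls, and the urate exporter Abcg2 fell by 2.11 log2. The 3 genes that rose were likewise singled out after the fact. Slc2a9 (GLUT9), the urate carrier by which reabsorbed urate reaches the blood, was at 8.05, 7.97 and 7.65 in NICD1 kidneys, against 6.37, 6.57 and 6.83 in controls (1.30 log2, SE 0.15, adjusted p = 0.000144). The efflux pump Abcc4 rose by 0.90 log2 (adjusted p = 0.000299) and the urate-forming enzyme Xdh by 0.88 (adjusted p = 0.00256).

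**Figure D3:**
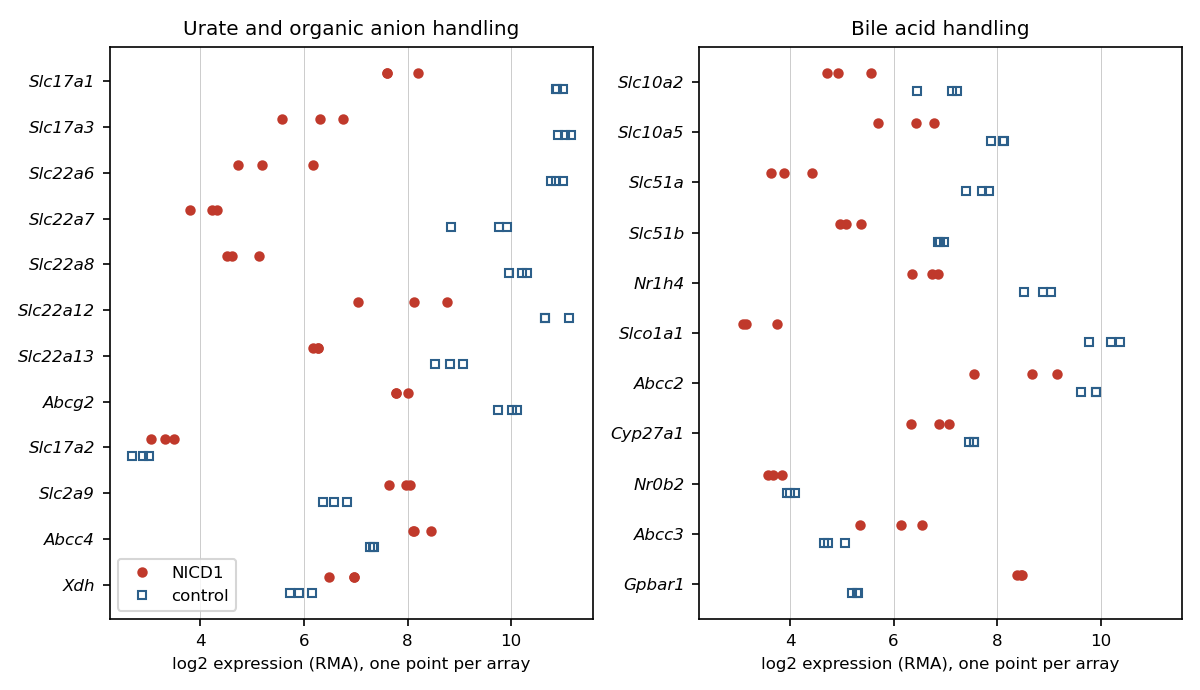
Log2 expression (RMA) per array of the called genes of urate and organic anion handling (left) and bile acid handling (right), transporters of the 39-gene set and their partner genes together, with NICD1 as filled circles and controls as open squares. Most rows have the NICD1 points on the left, whereas Slc17a2, Slc2a9, Abcc4 and Xdh on the left and Abcc3 and Gpbar1 on the right have them on the right.

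Of the 5 lysosomal and vesicular SLC17 genes only Slc17a5 was called, against 32.7% of all genes. This gene (sialin), which releases sialic acid from lysosomes in all cell types, was at 7.29, 7.74 and 7.60 in NICD1 kidneys, against 8.31, 8.89 and 8.87 in controls (-1.15 log2, SE 0.18, adjusted p = 0.000889). The vesicular glutamate carriers Slc17a6, Slc17a7 and Slc17a8 and the vesicular nucleotide carrier Slc17a9, all known from neurons and secretory cells, were under the median on all 6 arrays. Their means lay between 3.06 and 4.26 in NICD1 kidneys and between 2.90 and 4.28 in controls. Their differences ran from -0.065 to 0.17 log2.

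Of 6 measured SLC10 genes 2 fell and the other 4 were not called. Among all genes 14.9% were lower and 32.7% were called in either direction. Both SLC10 falls were at least 2-fold, which 5.30% of all genes showed. With only 6 genes, this count alone does not set the family apart. Slc10a2 (ASBT), the apical carrier that recovers bile acids in ileum and proximal tubule, was at 4.72, 4.94 and 5.57 in NICD1 kidneys, against 7.23, 7.12 and 6.46 in controls. The groups came closest at NICD1 replicate 3, the highest of its group, and control replicate 3, the lowest of its own. The fall was 3.63-fold (-1.86 log2, SE 0.25, adjusted p = 0.000368). Slc10a5, an orphan relative found in liver and kidney, was at 5.71, 6.78 and 6.44 in NICD1 kidneys, against 7.89, 8.12 and 8.14 in controls (-1.74 log2, SE 0.23, adjusted p = 0.000379). Slc10a7, a Golgi-associated protein of calcium balance, was at 5.69 to 6.10 in NICD1 kidneys and 5.36 to 5.60 in controls, without overlap but not called (0.34 log2, adjusted p = 0.0925). Slc10a1 (NTCP), the bile acid carrier of hepatocytes, averaged 3.17 ± 0.13 in NICD1 kidneys and 3.38 ± 0.12 in controls, and Slc10a6, a carrier of sulfated steroids, 3.47 ± 0.29 and 3.50 ± 0.08. Slc10a4, found in neurons, averaged 2.79 ± 0.05 and 2.55 ± 0.17 in NICD1 and control kidneys (adjusted p = 0.168).

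The promoter of Slc10a2 is shown because its HNF1 match was the closest among the members. The window lies at chr8:5105238-5105537 on the minus strand of GRCm38.p6 in RefSeq.
Slc10a2: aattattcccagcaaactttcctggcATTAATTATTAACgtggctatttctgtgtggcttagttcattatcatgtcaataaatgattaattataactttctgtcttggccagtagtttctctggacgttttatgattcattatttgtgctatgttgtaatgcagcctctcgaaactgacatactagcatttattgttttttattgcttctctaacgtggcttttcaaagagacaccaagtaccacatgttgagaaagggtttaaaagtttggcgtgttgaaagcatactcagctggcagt
The capitals mark the match, which begins at position -224 and has 1 mismatch.

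Other bile acid genes moved in both directions. Of 12 measured, 7 fell, 2 rose and 3 were not called (median -0.54 log2). Among all genes 14.9% fell and 17.8% rose, so the count of rises was near that share. The basolateral bile acid exit is made of the subunits Slc51a and Slc51b. Slc51a was at 3.88, 3.63 and 4.43 in NICD1 kidneys, against 7.40, 7.84 and 7.70 in controls (-3.67 log2, adjusted p = 2.14e-06), and Slc51b fell by 1.77 log2 (adjusted p = 6.65e-06). The organic anion carrier Slco1a1 fell by 6.79 log2. Nr1h4 (FXR), the nuclear bile acid receptor, singled out after its values were seen, was 4.47-fold lower (-2.16 log2, adjusted p = 1.36e-05). Gpbar1 (TGR5), the cell-surface bile acid receptor, stood out in the other direction. It was at 8.38, 8.46 and 8.48 in NICD1 kidneys, against 5.31, 5.30 and 5.20 in controls, a 9.003-fold rise with little spread in either group (3.17 log2, SE 0.10, adjusted p = 1.26e-07). TGR5 is also found on macrophages, and the part of the raised macrophage markers in this difference was not tested. The efflux pump Abcc3 rose by 1.21 log2 (adjusted p = 0.00587).

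Among the SLC23 genes Slc23a1 (SVCT1), which recovers filtered ascorbate in the proximal tubule, was at 7.58, 8.71 and 8.12 in NICD1 kidneys, against 9.72, 9.99 and 9.86 in controls. The groups did not overlap and the NICD1 arrays covered more than 1 log2 unit (-1.72 log2, SE 0.24, adjusted p = 0.00047, 3.30-fold). Slc23a2 (SVCT2), the ascorbate carrier of most other cell types, fell only slightly, at 6.01 ± 0.21 in NICD1 kidneys and 6.45 ± 0.09 in controls (-0.44 log2, adjusted p = 0.0250). That call was lost without NICD1 replicate 2 or 3 or control replicate 2 or 3, with differences of -0.43, -0.33, -0.44 and -0.39. Slc23a3 was at 5.29 to 5.66 in NICD1 kidneys and 5.44 to 6.15 in controls (-0.47 log2, adjusted p = 0.0969), and without control replicate 1, the lowest control array, it was called (-0.70, adjusted p = 0.00759), as it was after centring (-0.59) and with array weights (-0.60). Slc23a4, a nucleobase carrier of rodent intestine, was at 3.39 to 3.42 in NICD1 kidneys and 3.06 to 3.30 in controls, not overlapping and not called (0.26 log2, adjusted p = 0.0925) unless control replicate 1 was left out (0.33).

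The 20 lowered genes were not equally low in the 3 NICD1 arrays. NICD1 replicate 1 was the lowest array for 15 of the 20 genes, replicate 2 for 1 and replicate 3 for 4. The highest NICD1 array was replicate 2 for 11 genes, replicate 3 for 6 and replicate 1 for 3. The median distance of the 20 genes from their control means was -2.49, -2.17 and -1.96 log2 in NICD1 replicates 1, 2 and 3. The mean of the 13 proximal tubule markers stood -3.63, -3.12 and -2.84 log2 from controls in the same arrays. Single genes often departed from the order of these medians. Slc16a7 and Slc23a2 had the reverse order, lowest in replicate 3 and highest in replicate 1, and Slc16a4 and Slc16a14 were also lowest in replicate 3. Endothelial markers were lowest in replicate 3 too, with a mean of 5.36, against 6.45 and 6.27 in NICD1 replicates 1 and 2. The same held for fibroblast markers (7.59, against 8.37 and 8.45), macrophage markers (6.69, against 7.50 and 6.79) and podocyte markers. Collecting duct, T cell and hepatocyte markers were lowest in replicate 2, and proximal tubule and thick limb and distal markers were highest in replicate 3. Slc13a1 had the widest gap between NICD1 arrays, being 8.46 in replicate 3. The 16 genes not called had differences between -0.47 and 0.34 log2. The lowest bound of their intervals was -0.91, for Slc23a3, and the highest was 0.74, for Slc16a5. Other intervals were narrower, such as -0.05 to 0.38 for Slc17a6, so the changes that are not excluded differ from gene to gene. The intervals, unlike the calls, are not adjusted for the number of genes. Some uncalled genes therefore had intervals wholly above or below no difference, such as Slc10a7 (0.031 to 0.64) and Slc16a11 (-0.48 to -0.047).

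**Figure D4:**
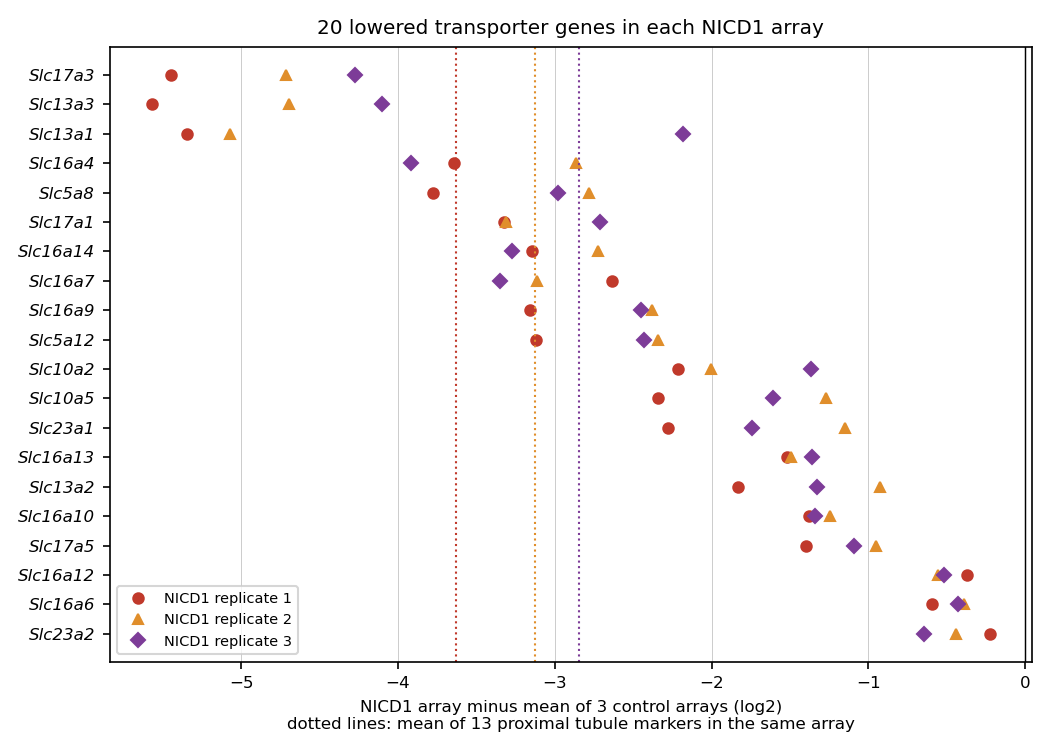
Distance of each NICD1 array from the control mean (log2) for the 20 lowered genes, with circles, triangles and diamonds for NICD1 replicates 1, 2 and 3 and dotted lines for the mean of 13 proximal tubule markers in the same array. Circles are leftmost in 15 rows, and the diamond of Slc13a1 lies far to the right of its other points.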

How the data were processed

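Total RNA of whole kidneys was labelled and hybridised to 1 array per sample, 3 NICD1 and 3 control, and per the labels' protocols the raw files were normalized in GeneSpring with RMA16. The values the authors deposited are log2 expression per probe set, between 1.40 and 13.67. The software version, detection calls and scan batches are not given in the sources used here. Gene symbols came from the platform annotation. Of 34760 probe sets 21640 had 1 symbol and 1321 several. A gene with several single-symbol probe sets was represented by the brightest of them, by its mean over the 6 arrays, which gave 19937 genes.

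The group difference was fitted with limma (version 3.58.1, R 4.3.3) over all genes (two-sided, Benjamini-Hochberg adjustment over all 19937 genes, threshold 0.05), and "called" means past that threshold. Differences are NICD1 minus control, and SD are over 3 arrays. The code of the fit was tried on simulated arrays with independent noise and far fewer changed genes than were called here. That trial does not test the calls reported here. Alternatives were the choice of probe set, 2 other scalings, a filter on dim genes, other variance models, array weights, a minimum change, a replicate block and leaving out each array. With 3 arrays per group, their number limits the precision. The members and the lists of partner and marker genes were chosen with earlier results of these data known. Partner genes named are the up to 4 with the lowest p per list, plus those said to be chosen after their values were seen, Bsg, Slc9a3r1, Uox, Ldha and Abcc3 included. Lists are described by counts and medians, without a set test. Same-numbered arrays of the groups did not deviate together (correlations of their deviations from the group means -0.069, -0.0115 and -0.070), so the numbers were not taken to pair arrays. Promoters and gene order came from RefSeq tables. Promoter windows were 300 bases long.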

Additional observations from a re-analysis of the deposited data

How the results depend on the processing

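The counts of lowered members (20) and risen members (3) were recomputed under 14 alternatives. Leaving out each array in turn gave 18 to 20 lowered and 1 to 4 risen members, and 2459 to 2811 lowered and 2816 to 3488 risen genes overall. The single risen member was reached without NICD1 replicate 2, control replicate 2 or control replicate 3, and after centring each array on its median, where 1 member rose and 23 fell. After centring, the median over all genes was -0.11 log2 in place of 0.015, and the share of risen genes among calls was 39.4% in place of 54.4%. A minimum change of 2-fold left 11 lowered and 0 risen members, and 507 lowered and 374 risen genes. The replicate block, for numbers that are not known to pair the arrays, gave 19 lowered and 2 risen members. With it Slc16a6, Slc17a2 and Slc23a2 lost their calls and Slc23a3 gained one. Array weights gave 22 lowered members. Of 535 recomputed member differences 476 kept direction and call, 34 lost the call, 12 gained one and 13 changed sign. The sign changes concern uncalled members: Slc16a8 (quantile normalization -0.016, centring -0.042), Slc10a6 (array weights 0.066, -0.19 to 0.089 when 1 array was left out, with 0.010 without control replicate 2), Slc17a8 (array weights 0.096, -0.13 to 0.13 when 1 array was left out, with 0.063 without NICD1 replicate 1), Slc16a5 (-0.46 to 0.27 when 1 array was left out, with 0.065 without NICD1 replicate 3, 0.11 without control replicate 1 and 0.063 without control replicate 3) and Slc17a9 (-0.13 to 0.054 when 1 array was left out). Slc13a4 and Slc16a11 were called lower after quantile normalization (-0.38 and -0.37) and centring (-0.40 and -0.39), Slc16a11 also without dim genes (-0.27) and Slc13a4 with array weights (-0.34). Slc23a3 was called lower after centring (-0.59) and with array weights (-0.60). The causes were not tested. Dim members near the RMA floor have compressed differences, and for them small changes can be missed.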
